A study of Mus musculus with 6 samples.

Results

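The cytosolic ribosome is built from RNA and a large set of core proteins, and the genes that code for them were followed here through kidney cells of WT, ADPKD and MMPP-treated ADPKD mice. They were taken by symbol: every row named Rpl or Rps with a number, plus Rplp0, Rplp1, Rplp2 and Rpsa, leaving out the S6 kinases and the rows named as pseudogenes. The rule found 94 of 55367 rows. By annotation 86 of them are protein-coding, 7 are annotated as pseudogenes without a pseudogene name (Rpl32l, Rpl37rt, Rpl6l, Rps12l1, Rps3a2, Rps3a3 and Rps4l), and Rps23rg1 matched no gene of GENCODE vM21. Rps19bp1 fits the symbol rule but codes for a protein that binds S19 rather than for a ribosomal protein. Of the 94 rows, 88 had at least 1 FPKM in at least 2 libraries and were tested, while Rpl10l, Rpl32l, Rpl39l, Rpl3l, Rps12l1 and Rps23rg1 stayed at or near 0 in every library.

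Poly(A) RNA was sequenced from kidney cells with the label Day115, and the study had 2 libraries in each of 3 groups. WT mice carried intact Pkd1 and received saline, ADPKD mice were Pkd1-/- and received saline, and MMPP-treated ADPKD mice were Pkd1-/- and received mmpp, which are Mn2+-chelated, polyethylene glycol-coated melanin-like nanoparticles. Per the study's methods the knockout came from a floxed Pkd1 allele and a tamoxifen-inducible Cre/Esr1 in male mice, a Cre that is not restricted to 1 tubule segment, and the cells were enriched with the lectin DBA, which binds collecting duct epithelium. The labels do not say whether the libraries of a group came from separate mice, so p-values measure only the spread between these libraries. Their extraction text names both DBA-positive cells and whole kidney.

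Each ribosome has a small 40S subunit, which reads the mRNA, and a large 60S subunit, which joins amino acids, and both need their proteins in matched amounts. Most ribosomal protein mRNAs begin with a C followed by an uninterrupted run of pyrimidines, the terminal oligopyrimidine or TOP motif, through which growth signalling by mTOR sets how much of them is translated. Excess free 60S proteins such as RPL5 and RPL11 are known to bind the p53 regulator MDM2.

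RefSeq start regions (GRCm38.p6, 250 bases before to 50 after the annotated start) were given for 69 of the 94 rows, and several are shown because the rows below move together. Each stretch runs from 60 bases before the start to 20 bases from the start onward, and the capitals mark its longest run of C and T between 30 bases before and 20 bases after the start. The first 4 are among the 5 called rows with the largest difference in ADPKD, the next 3 among the 5 with the smallest.
Rplp0 (chr5:115559407-115559486, + strand): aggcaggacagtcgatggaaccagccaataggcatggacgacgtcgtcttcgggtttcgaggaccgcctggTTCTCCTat
Rps27l (chr9:66946026-66946105, + strand): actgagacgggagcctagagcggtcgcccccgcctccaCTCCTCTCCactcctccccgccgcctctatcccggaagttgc
Rpl12 (chr2:32961652-32961731, + strand): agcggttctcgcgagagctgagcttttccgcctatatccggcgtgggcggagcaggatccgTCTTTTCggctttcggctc
Rpl36a (chrX:134585594-134585673, + strand): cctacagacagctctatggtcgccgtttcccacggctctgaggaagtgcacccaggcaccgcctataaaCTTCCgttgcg
Rpl38 (chr11:114668520-114668599, + strand): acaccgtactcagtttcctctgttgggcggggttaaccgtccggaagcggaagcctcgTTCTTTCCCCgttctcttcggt
Rpl15 (chr14:18270967-18271046, - strand): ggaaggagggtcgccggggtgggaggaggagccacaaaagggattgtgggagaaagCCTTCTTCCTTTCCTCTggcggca
Rps26 (chr10:128626487-128626566, - strand): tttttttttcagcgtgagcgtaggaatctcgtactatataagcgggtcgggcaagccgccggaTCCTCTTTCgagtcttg
A run of at least 8 pyrimidines lay in this window in 34 of the 69 rows (49.3%), against 22.9% of all 27025 genes with a start region and 23.4% of the 10336 tested ones. Of the motifs searched on both strands of the 300 bases, TCTCGCGA was present in 15.9% of the 69 rows and 2.33% of tested genes, the ETS core CCGGAAG in 37.7% and 18.7%, and the cAMP response element TGACGTCA in 7.25% and 3.33%. The GC box GGGCGG was found in 59.4% and 67.6%. Of all genes with a start region, 1.13% held TCTCGCGA, 9.93% CCGGAAG, 2.03% TGACGTCA and 38.2% the GC box. The shorter TGACGT (which overlaps TGACGTCA) was held by 17.4% of the 69 rows and 8.37% of all genes, CACGTG by 8.70% and 8.09%, AAGATGGC by 8.70% and 3.19%, and TATAAA by 11.6% and 15.7%. Among tested genes these shares were 12.6%, 11.7%, 5.01% and 9.34%, so the order against the 69 rows turned for CACGTG and TATAAA. TGACGTCA lay in 5 of the 69 rows. It was found in 0 of the 18 rows called higher in ADPKD that had a start region, and in 5 of the 46 tested rows not called (10.9%). Whether this element has a part in the levels below was not tested. A match of letters is a description and not a binding site.

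Sequencing depth, in reads as recovered from the steps in which FPKM falls, was 30576000 to 33074900 for WT and ADPKD, and 11807300 and 10910900 after MMPP. The MMPP-treated libraries also held few odd read numbers, 8.36% and 7.97% against 37.1% to 38.9% in the others, so a difference in how these values were made cannot be told apart from the treatment. Pkd1, the deleted gene, stood at 17.7 and 17.2 FPKM in WT, 7.64 and 8.91 in ADPKD, and 4.34 and 3.99 after MMPP (ADPKD against WT, limma, called lower, Benjamini-Hochberg adjusted p = 0.00566). FPKM counts fragments scaled to gene length and library depth, and levels are compared between rows on that scale only. Ribosomal protein genes share sequence with processed copies across the genome: a median of 21.0% of the 50-base stretches of a row recurred in another annotated gene. How the authors counted reads that map to several places is not given in the sources used here, and the level of each row is uncertain to that extent.

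In ADPKD cells nearly the whole family stood above WT by a similar amount. The summed FPKM of the 94 rows was 12203 and 12904 in WT, and 15392 and 19799 in ADPKD. That is 4.58% and 4.84% of all FPKM in WT, and 5.41% and 7.03% in ADPKD. The median log2 fold change of the 88 tested rows was 0.49, a fold of 1.40, against 0.03 over all 14862 tested genes. The log2 fold change lay above 0 for 87 of 88 rows, where 52.3% of all tested genes did, and both ADPKD libraries exceeded both WT libraries for 80 rows (90.9%), where 35.5% of all tested genes did. In bulk RNA, fewer cells of a type and less RNA per cell cannot be told apart.

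The threshold for calls fell within the family's own range. At a fold change of at least 1.5 and an unadjusted P under 0.05 in limma, 25 of 88 rows were higher in ADPKD, 28.4% against a background of 14.2%, and 0 were lower, against 12.5%. The fold threshold, 0.58 on the log2 scale, lay above the family's median, and 26 rows reached it, and 25 of these also passed on P. Just inside it lay Rpl38 at 0.59, and just outside Rpl35 and Rps4x, both at 0.58. By P alone, a rule chosen after seeing the data, 56 rows were higher (background 21.7%) and 0 lower (background 19%). With a Benjamini-Hochberg adjusted p under 0.05 and the same fold, 17 rows were higher (background 11.9%). With each library centred on the median of the family, Rplp0 stood at 0.31 and Rps27l at 0.29, and neither was called. Rps4l was called lower at -0.66 (limma, Benjamini-Hochberg adjusted p = 0.0818). It was the only row called there (1.14% lower, against 44.6% of all tested genes), and 0 were higher (against 4.82%). This centring holds the family's median near 0 by construction and moved that of all tested genes to -0.56. These shares are thus not a comparison with background.

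The 2 ADPKD libraries differed in how far they moved. ADPKD library 1 lay a median of 0.31 above the WT mean on the log2 scale, with 85 of 88 rows above it, and ADPKD library 2 lay 0.66 above it, with 86 of 88 rows above. The median step from ADPKD library 1 to 2 was 0.36, so it exceeded the step from WT to ADPKD library 1. When 1 library is left out, its group has 1 sample, which is assumed to vary like the other groups. Without ADPKD library 2, 3 rows were called higher (3.41%, against 14.4% of all tested genes under the same setting) and the median was 0.31. Without ADPKD library 1, 56 rows were called (63.6%, against 16.6%) and the median was 0.66. With any 1 library left out, WT libraries included, the family's median lay between 0.31 and 0.66. The scaling mattered as well: 11 rows were called after scaling each library to a common sum (12.5%, against 13.9%), and 13 after scaling to a common sum without the family, by median of ratios or by quantiles (14.8%, against 12.3% to 13.3%). Under these scalings the share of rows called was thus near that of all genes, while the family's median still lay between 0.37 and 0.43.

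**Figure D1:**
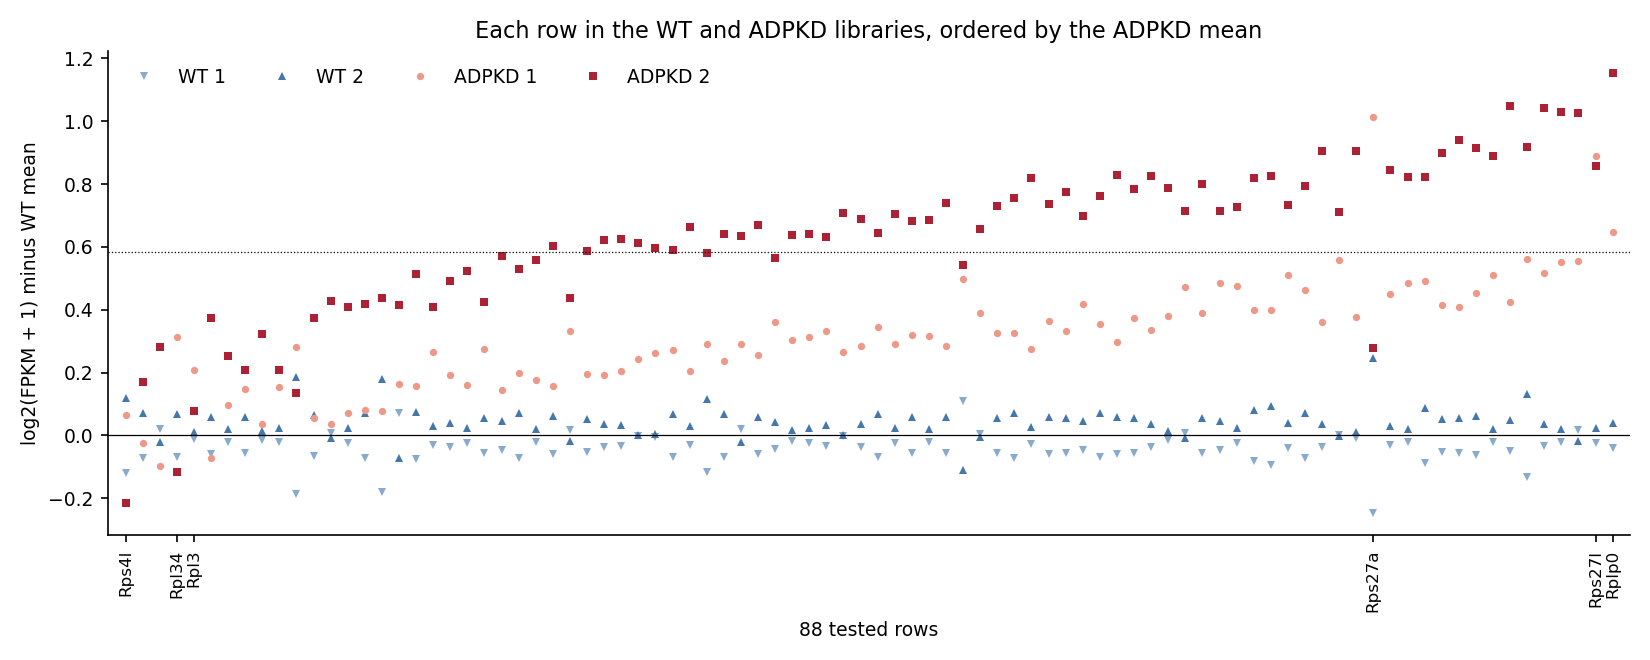
Difference of log2(FPKM + 1) from the WT mean for each of the 88 tested rows in the 4 WT and ADPKD libraries (1 point per library, rows ordered by the ADPKD mean, 6 of them named on the axis, dotted line at a fold of 1.5). ADPKD library 2 lies above ADPKD library 1 for 82 of 88 rows. The WT libraries mirror each other around 0 by construction, since their own mean is subtracted.

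The markers of other cells moved in the same comparison. Leukocyte markers were called higher for 6 of 6 genes, and their summed level was 57.1 and 56.9 FPKM in WT and 294 and 354 in ADPKD. Intercalated cell markers were called lower for 5 of 5 genes, from 181 and 202 to 34.9 and 18.8 FPKM, podocyte markers for 3 of 3 genes, from 397 and 578 to 84.9 and 30.1 FPKM, and endothelial markers for 4 of 4 genes. Of 4 fibroblast markers 3 were called higher and 1 lower, and both tested cycling markers were higher. Principal cell markers, which define the DBA-positive collecting duct, summed to 2074 and 2772 FPKM in WT, and to 2462 and 934 in ADPKD, where library 2, the one with the higher ribosomal protein level, had less of them. None of the 6 tested principal cell markers passed the test, with Aqp2 at 1267 and 1776 FPKM in WT and 1392 and 677 in ADPKD, and Avpr2 was near 0 in every library. The part of these cells in the ribosomal protein result was not tested.

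Among the single rows, the ribosomal stalk protein Rplp0 had the largest difference. Its level was 168 and 178 FPKM in WT and 271 and 386 in ADPKD, with no overlap between groups. Its log2 fold change was 0.90 (SE 0.19, limma, Benjamini-Hochberg adjusted p = 0.0221). The other stalk proteins shifted less and were not called: Rplp1, the row with the highest mean level of the family, stood at 853 and 885 FPKM in WT and 1051 and 1532 in ADPKD, and Rplp2 at 101 and 112 against 122 and 154. Rplp1 and Rplp2 pair with Rplp0 in the stalk that recruits translation factors.

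Rps27l, a paralog of Rps27 known as a p53 target, was second. It stood at 48.9 and 50.5 FPKM in WT and 93.0 and 91.0 in ADPKD, with a log2 fold change of 0.87 (SE 0.14, limma, adjusted p = 0.00975). Unlike 82 of the 88 rows, it was not higher in ADPKD library 2 than in library 1. The partner Rps27 was not called. It had 267 and 290 FPKM in WT and 264 and 361 in ADPKD, and the groups overlapped. Rps27l made up 18.4% and 17.4% of the Rps27 level in WT, and 35.2% and 25.2% in ADPKD, with no overlap.

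The 3 next rows code for 60S proteins. Rpl12, at the base of the stalk, measured 54.0 and 52.6 FPKM in WT and 78.7 and 109 in ADPKD (log2 fold change 0.79, limma, adjusted p = 0.0279). Rpl32 measured 176 and 181 FPKM in WT and 261 and 364 in ADPKD (0.79, limma, adjusted p = 0.0265). Rpl36a measured 57.3 and 60.2 FPKM in WT and 84.4 and 122 in ADPKD (0.78, limma, adjusted p = 0.0411). All 3 had ADPKD libraries above both WT libraries, library 2 in each case the higher.

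The calls were spread over both subunits. The 40S rows had a median log2 fold change of 0.53 with 10 of 33 called higher, and the 60S rows 0.44 with 14 of 49. The remaining call was Rpl6l, a row annotated as a pseudogene. The called rows with the smallest difference, between 0.59 and 0.61, were Rpl38, Rpl30, Rpl15, Rps26 and Rpl23a. Rpl39, a short 60S protein, was called at 0.74 with 70.8 and 85.2 FPKM in WT and 115.1 and 148 in ADPKD, and its paralog Rpl39l was at or near 0 throughout. Among proteins with a role outside protein synthesis, Rpl5 was called, at 83.7 and 90.2 FPKM in WT and 116 and 163 in ADPKD (0.66, limma, adjusted p = 0.0485). Its partner in the 5S RNA particle, Rpl11, had 92.8 and 102 FPKM in WT and 124 and 153 in ADPKD, a log2 fold change of 0.49 that did not reach the fold threshold. Rps19 and Rps14, whose loss causes anaemia in people, stood at 0.74 (limma, adjusted p = 0.0625, called on the unadjusted P) and at 0.34 (not called). Rps6, the substrate of the S6 kinases, had 294 and 309 FPKM in WT and 367 and 487 in ADPKD and was not called.

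Rps27a, which is made as a fusion with ubiquitin, had 53.1 and 75.2 FPKM in WT and 129 and 76.8 in ADPKD. Its log2 fold change of 0.65 was beyond the threshold, but the libraries of each group spread widely and it was not called. Rps4l was the only row below 0, at -0.08, and turned above 0 when WT library 2 or ADPKD library 2 was left out. Rpl34 and Rpl3 also had less in ADPKD library 2 than in library 1. Rpl34 had 87.5 FPKM in library 1 and 64.7 in library 2, while the row Rpl34-ps1 had 13.7 and 409 FPKM.

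Genes that share the TOP motif or work beside the ribosome are described by lists, beside 14.2% of all tested genes called higher and 12.5% lower. Of 17 translation factors and other genes known for TOP mRNAs, 5 were called higher and 0 lower, with a median log2 fold change of 0.41. They were Npm1, a nucleolar chaperone (0.85), Eif3f (0.70), Eef1b2 (0.67), Eif3e (0.65) and Eif4b (0.62). Of the ribosomal protein genes with other names, Rack1 was called at 0.68, and Fau, at 311 and 315 FPKM in WT and 345 and 404 in ADPKD, was not. Of 39 tested ribosome assembly factors, 8 were higher and 0 lower with a median of 0.17, led by Nhp2 (1.05) and the 60S release factor Eif6 (0.99). Of 7 snoRNA host genes, 1, Snhg6 (1.45), was higher, and the median was 0.09.

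**Figure D2:**
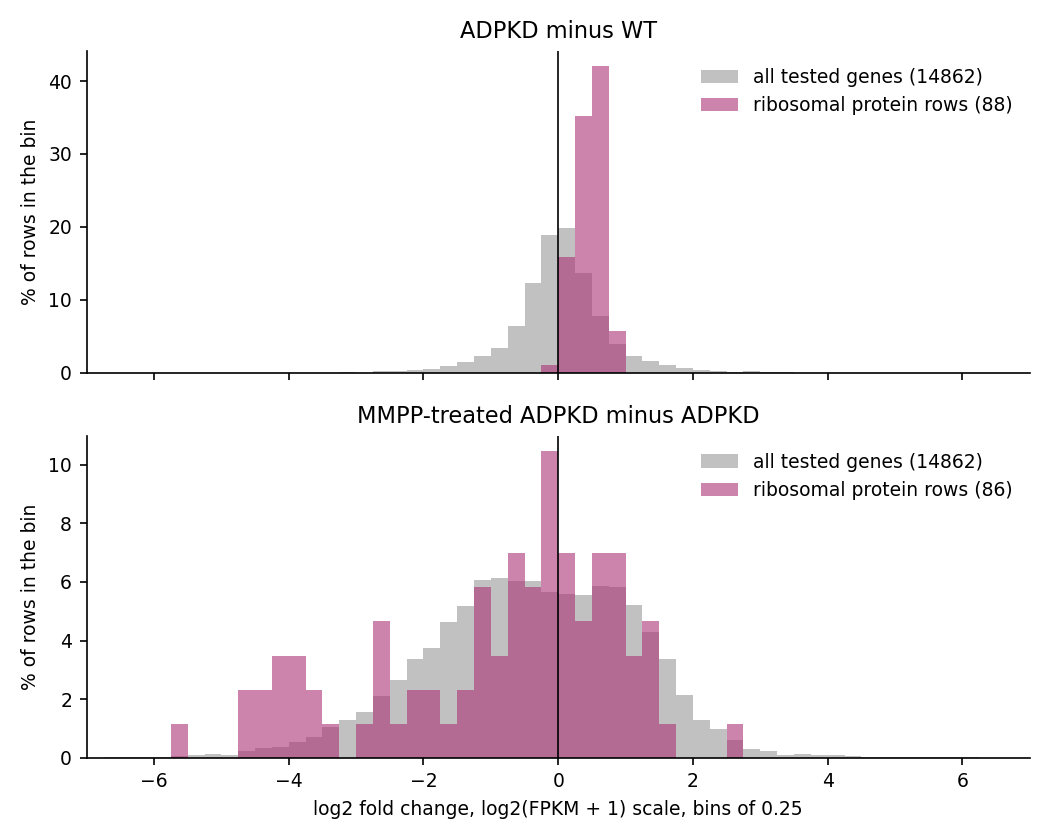
Share of rows (%) in bins of 0.25 of the log2 fold change for the ribosomal protein rows and for all 14862 tested genes, in ADPKD against WT (top, 88 rows) and in MMPP-treated ADPKD against ADPKD (bottom, 86 rows, without Rpl17 and Rpl24, which were listed at 0). The family forms 1 narrow peak with a median of 0.49 in the upper panel and a wide spread to both sides of 0 in the lower.

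After MMPP treatment the family no longer moved together. Its log2 fold changes against ADPKD had an SD of 1.82 over 86 rows, without Rpl17 and Rpl24, which were listed at 0 in both MMPP-treated libraries. In ADPKD against WT the SD over 88 rows was 0.19, while the SD over all tested genes was 1.54 after MMPP and 0.75 in ADPKD. In limma 16 rows were called higher, against a background of 27.9%, and 40 lower, against a background of 43%. In this setting the shares were thus near or under the background. That depended on the scaling: by quantiles 47 rows were lower (53.4%, against 30.8%) and 10 higher (11.4%, against 36.1%). After centring by exon share, described below, 31 were lower (37.3%, against 24.5%) and 26 higher (31.3%, against 33.8%). With a common sum 48 were lower (54.5%, against 49.8%), and with median of ratios 36 (40.9%, against 38.3%). By P alone 21 rows were higher (background 31.8%) and 42 lower (background 46.7%). Both MMPP-treated libraries lay above both ADPKD libraries for 25 rows (background 36.1%) and below both for 49 (background 51.7%), and the log2 fold change was above 0 for 31 (background 41.7%). The median log2 fold change was -0.45, or -0.39 without Rpl17 and Rpl24, and -0.36 over all tested genes. The summed FPKM of the family, 17302 and 16884, lay within the range of the ADPKD libraries, while its share of all FPKM, 4.94% and 4.81%, lay below both ADPKD libraries. Without the 100 highest other genes the shares were 7.25% and 7.03%, which lay between those of the ADPKD libraries (6.93% and 8.79%). Across the 88 rows, log2 levels correlated with Pearson's r of 0.990 or more between any of the WT and ADPKD libraries, of 0.995 between the MMPP-treated libraries, and of 0.591 to 0.626 between an MMPP-treated library and any other. These are correlations across genes, which share libraries and depth.

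**Figure D3:**
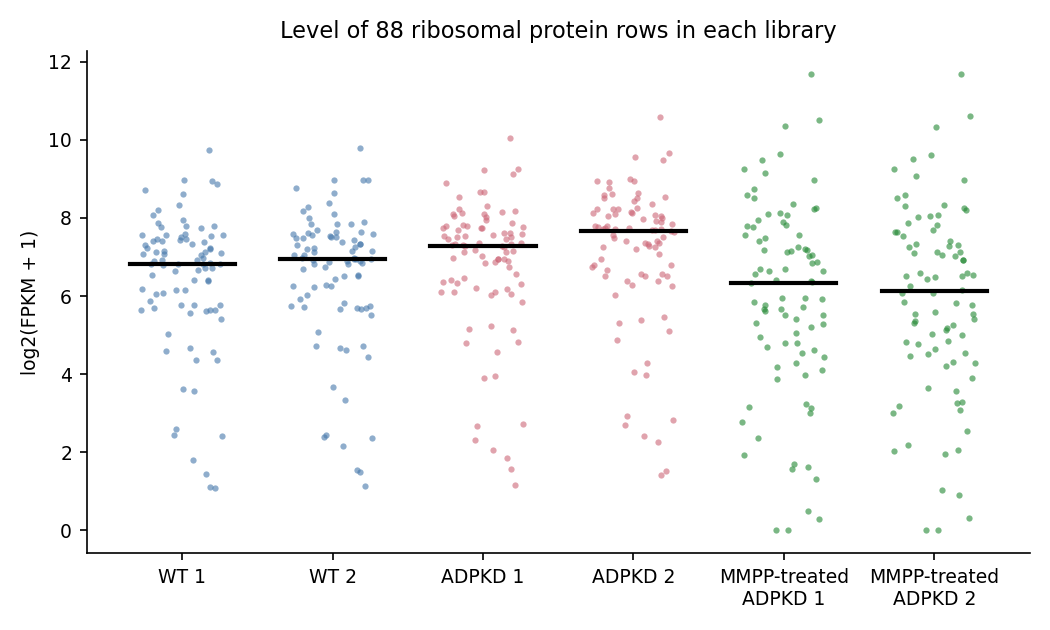
log2(FPKM + 1) of the 88 tested rows in each of the 6 libraries (1 point per row, the line is the median). The points shift upwards from WT to ADPKD as a body, and in the MMPP-treated libraries they spread to both higher and lower levels, with 2 rows at 0.

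The rows listed at 0 had been at very different levels in the other libraries. Rpl17, a 60S protein, stood at 223 and 229 FPKM in WT and 316 and 400 in ADPKD, and was listed at 0 in both MMPP-treated libraries. Rpl24 stood at 4.41 and 4.26 FPKM in WT and 3.99 and 5.48 in ADPKD, and was listed at 0 there too. No fold is given for either. Rpl24 shares 47.0% of its exon bases with the annotated gene Gm28037, and the 11 pseudogene rows named after Rpl17 went from a sum of 146 and 191 FPKM in ADPKD to 11.9 and 13.7.

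Rows that stayed above 0 were also far below their ADPKD level. Rpl22, a 60S protein, went from 71.0 and 83.0 FPKM in ADPKD to 0.407 and 0.882 (log2 fold change -5.58, limma, adjusted p = 2.15e-05). Rpl18 went from 81.5 and 110 to 2.83 and 3.06 FPKM (-4.60). Rpl37rt, annotated as a transcribed pseudogene, went from 27.3 and 33.3 to 0.225 and 0.244 FPKM (-4.66). In each the MMPP-treated libraries lay below all 4 others.

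At the other end stood Rpl35a, with 5.59 and 6.09 FPKM in ADPKD and 37.9 and 41.3 after MMPP (log2 fold change 2.57, limma, adjusted p = 3.04e-05). The 6 pseudogene rows named after Rpl35a summed to 28.2 and 41.2 FPKM in ADPKD and were listed at 0 in both MMPP-treated libraries. With their FPKM added to that of Rpl35a, the log2 fold change was -0.02. FPKM is scaled to the length of each row, so this sum is not a sum of reads and does not test the rise. Rpl21 was called at 1.38 alone and lost its call at 0.28 with the FPKM of its 15 pseudogene rows added in the same way. Rplp1 went from 1051 and 1532 to 3299 and 3320 FPKM (1.38, limma, adjusted p = 0.00119), and Rps29 from 215 and 280 to 608 and 615 (1.31, limma, adjusted p = 0.000608). The pseudogene rows named after these, 1 each, were at 0 in every library. However, 50-base stretches of Rplp1 recur in 5 other annotated genes, and those of Rps29 in 7. Copies without a pseudogene name were not added, so the part of shared sequence in these 2 rises was not tested. Rps3a2, an annotated pseudogene of which 90.2% of the 50-base stretches recur in other genes, went from 1.99 and 1.69 to 7.70 and 8.80 FPKM (1.70).

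The 319 rows named as ribosomal protein pseudogenes summed to 1153 and 1276 FPKM in WT, 1400 and 2393 in ADPKD, and 465 and 497 after MMPP. Of 73 tested, 44 were lower and 6 higher than in ADPKD, against backgrounds of 43% and 27.9% for all genes. A row that is high only in WT or ADPKD passes the filter, so the filter can add to the lower count. Pseudogene rows above 0 numbered 146 to 155 in the WT and ADPKD libraries, and 92 and 93 after MMPP at lower depth. Rps12-ps3, for example, had 203 and 333 FPKM in ADPKD and was listed at 0 after MMPP, and Rps10-ps2 went from 166 and 235 to 9.22 and 8.87 FPKM, both chosen after their values were seen. Rps10 itself was at 2.63 and 3.83 FPKM in ADPKD and 2.05 and 3.17 after MMPP.

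Within the family, the annotation of a row went with its value after MMPP. The bins and correlations below were computed for the family alone, so they cannot show a trait particular to it. Against ADPKD, the median log2 fold change was 0.93 for the 7 tested rows whose gene has 1 transcript, 0.15 for the 27 with 2 to 4 transcripts, -0.64 for the 31 with 5 to 7, and -1.27 for the 23 with 8 or more. In ADPKD against WT the same sets had medians of 0.43, 0.52, 0.49 and 0.46. After MMPP the 7 rows with 1 transcript ranged from -4.00 to 1.70. Among them, Rpl6l, Rps3a2 and Rps3a3 are annotated as pseudogenes. Over the 88 rows, Spearman's rho of the change with the number of transcripts was -0.36 after MMPP and -0.04 in ADPKD against WT. With the share of 50-base stretches found in other genes it was -0.01 and -0.03, with exon length -0.25 and 0.06, and with the part of the exons found in only 1 transcript 0.17 and -0.05. Rps3a1 and Rpl36, next to Rplp1 the rows with the highest mean level, have 1 transcript each and were called higher after MMPP, Rps3a1 from 607 and 804 to 1453 and 1550 FPKM (1.10) and Rpl36 from 601 and 758 to 1304 and 1275 FPKM (0.93). After centring the libraries within 20 bins of genes by how much of the exon sequence belongs to exactly 1 transcript, these values became -0.11 and -0.28. Of the 83 rows in that setting 26 were then higher (33.8% of all genes) and 31 lower (24.5% of all genes), with a family median of -0.06 against 0.15 over all genes.

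**Figure D4:**
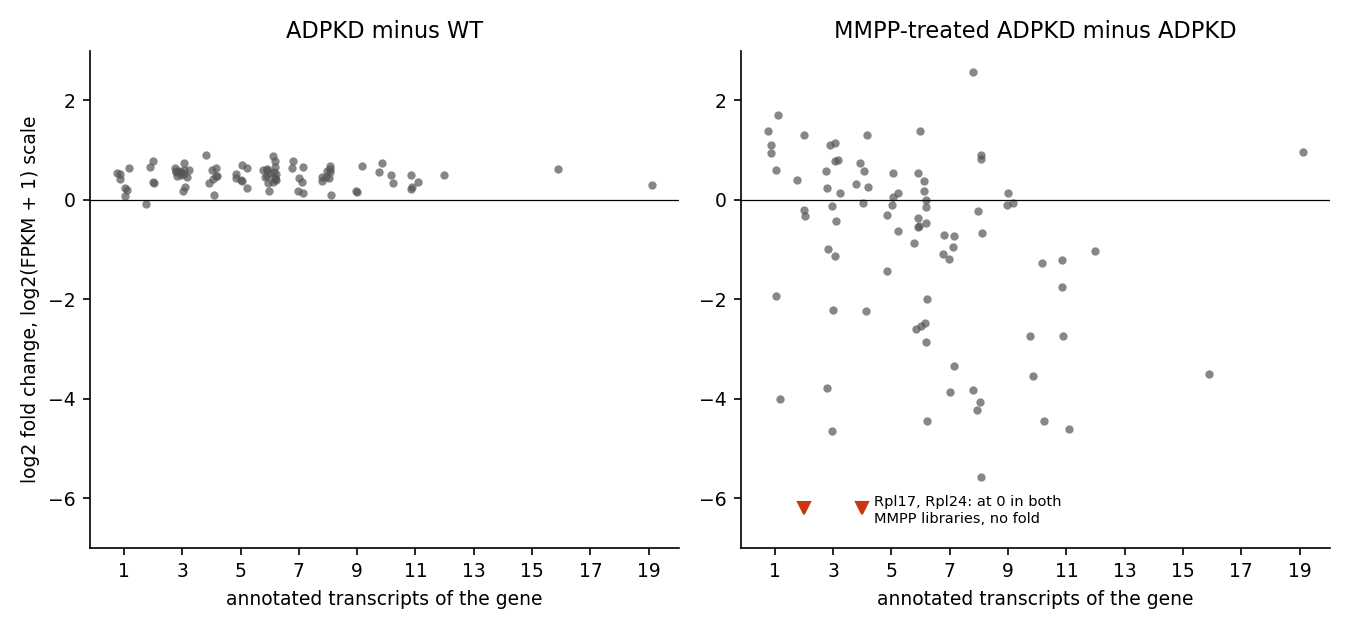
log2 fold change of each tested row against its number of annotated transcripts (shifted sideways at random to part overlapping points), in ADPKD against WT (left) and MMPP-treated ADPKD against ADPKD (right). Triangles mark Rpl17 and Rpl24 at their number of transcripts and at an arbitrary height. The left panel is flat (Spearman's rho -0.04) and the right falls with the number of transcripts (rho -0.36).

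The ratio within paralog pairs was compared next. Rpl22l1, the paralog of Rpl22, had 23.3 and 25.3 FPKM in WT, 27.0 and 28.1 in ADPKD, and 25.1 and 26.1 after MMPP. Relative to its partner, Rpl22l1 went from 38.0% and 33.9% of the Rpl22 level in ADPKD to 6168% and 2964%. Rpl22 was under 1 FPKM in both MMPP-treated libraries, so this ratio rests on a partner near the floor. Rpl7l1 had 14.0 and 15.6 FPKM in ADPKD and 27.0 and 23.9 after MMPP, which is 6.26% and 5.17% of Rpl7, then 54.6% and 62.2%. It lost its call under scaling to a common sum (0.47) and turned to -0.06 after centring by exon share.

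The other pairs were as follows. Rpl36al was 3.76% and 3.57% of Rpl36a in ADPKD and 2.84% and 4.27% after MMPP, and the groups overlapped. Rps27l was 31.9% and 29.9% of Rps27 after MMPP, inside the range of the ADPKD libraries. Rps4l was 8.07% and 4.68% of Rps4x in ADPKD and 3.73% and 3.87% after MMPP, below all 4 other libraries, while Rps4x, the X-linked S4 gene, went from 279 and 393 to 713 and 724 FPKM (log2 fold change 1.11, limma, adjusted p = 0.00221). Rpl3l, the muscle paralog of Rpl3, stayed under 0.5 FPKM in every library. Rpl10l, a testis paralog, was at 0 throughout, and Rpl10 had 275 and 348 FPKM in ADPKD and 44.4 and 47.0 after MMPP. Rps27rt, a retrocopy of Rps27, dropped from 72.4 and 83.0 to 17.2 and 22.1 FPKM.

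**Figure D5:**
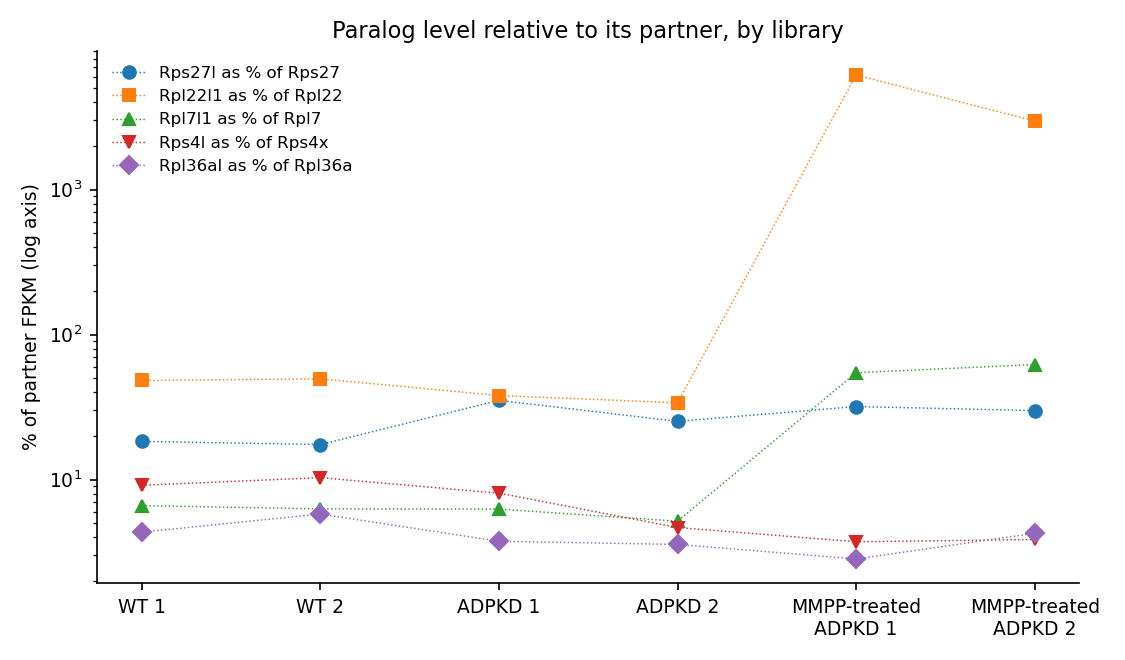
Level of 5 paralogs as a percentage of the partner's FPKM in each library (log axis, dotted lines only join points of a pair). In the MMPP-treated libraries Rpl22l1 (6168% and 2964%) and Rpl7l1 (54.6% and 62.2%) lie above all other libraries and Rps4l (3.73% and 3.87%) below them. The partner Rpl22 was under 1 FPKM in both MMPP-treated libraries.

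Several members named for a known role are given next. Rpl5 went from 116 and 163 to 18.5 and 17.6 FPKM after MMPP (-2.86, limma, adjusted p = 6.85e-05), and Rpl11 from 124 and 153 to 56.5 and 56.6 FPKM (-1.27, limma, adjusted p = 0.000519). Rps14 went from 176 and 216 to 7.85 and 8.12 FPKM (-4.45), and Rpsa, which was also described as a laminin receptor, from 160 and 213 to 38.3 and 27.2 FPKM. Rps3, which also acts in DNA repair, was not called, at 122 and 160 FPKM in ADPKD and 153 and 156 after MMPP. Rpl13a, often used as a reference gene in PCR, had 5.39 and 6.61 FPKM in ADPKD and 13.6 and 11.5 after MMPP. Rps19bp1, the row that is no ribosomal protein, went from 14.4 and 14.9 to 32.1 and 35.2 FPKM (1.14).

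Markers of other cells moved in this comparison too. Of 8 proximal tubule markers, 7 were called higher after MMPP than in ADPKD, and their sum went from 638 and 95.0 to 13547 and 12830 FPKM, most of it Kap at 12822 and 12116 FPKM. Principal cell markers summed to 5414 and 5438 FPKM, with 4 of 6 tested called higher and 1 lower. Of the leukocyte markers 2 were higher and 4 lower, and of the intercalated cell markers 5 of 5 were higher. The part of these markers in the ribosomal protein values was not tested. Of the 17 TOP-mRNA factors 4 were higher and 10 lower, and of the 39 assembly factors 12 higher and 18 lower, beside 27.9% and 43% of all tested genes.

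Against WT, the MMPP-treated libraries gave 28 rows higher (background 30.1%) and 32 lower (background 43.8%) in limma. By P alone 30 were higher (background 33.7%) and 37 lower (background 47.2%), and both MMPP-treated libraries lay above both WT libraries for 42 (background 38.9%) and below both for 39 (background 53%). The family had a median log2 fold change of 0.07, against -0.36 over all tested genes. This comparison shares its MMPP-treated libraries with the one above. The highest were Rpl35a (2.95), Rps21 (1.93, from 141 and 148 to 565 and 542 FPKM), Rplp1 (1.93), Rps3a2 (1.91) and Rps4x (1.69). The lowest with a level above 0 were Rpl22 (-4.96), Rpl18 (-4.24), Rps14 (-4.10) and Rpl37rt (-4.10). With the FPKM of its pseudogene rows added, which is not a sum of reads, Rpl35a stood at 0.21 and was not called. The sign of the family median depended on the scaling, from -0.32 with a common sum to 0.33 after centring by exon share, so no direction is given for the family in this comparison.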

How the data were processed

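Reads were aligned by the authors to mm10 with HISAT2 2.1.0 and counted with featureCounts 1.6.0, per the labels and the study's methods. The deposited values are FPKM per gene symbol, made by the authors, for 55367 symbols in each of 6 libraries. The annotation and the handling of multi-mapping reads are not given in the sources used here. The study's own test, DESeq2, needs counts and was not run.

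A limma 3.58.1 model (R 4.3.3; two-sided; 1 mean per group, 3 residual degrees of freedom) was fitted to log2(FPKM + 1) for 14862 genes that reached 1 FPKM in 2 or more libraries. Fold changes are on this scale and understate the change of low genes. Calls needed a 1.5-fold difference and an unadjusted P under 0.05, the study's thresholds, and adjusted p is Benjamini-Hochberg over every gene in the model. Positions, exon lengths and transcripts came from GENCODE vM21 (GRCm38) for 93 of the 94 rows. FPKM times exon length fell on single-read steps for 98.3% to 99.0% of low values (tolerance 0.05 reads), which gave a depth of 10910900 to 33074900 reads. The test was checked on simulated data for ADPKD against WT, with independent noise in each gene. Such a check cannot cover shifts shared by many genes. The 2 libraries per group set the precision.

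Named rows were paralogs, rows with a known role, the 5 largest and 5 smallest log2 fold changes of called rows per comparison, the 3 highest levels, and members of the lists, some of which are not reported here. The rows, lists and most tests were chosen with earlier results of these data known. Alternatives covered the pseudocount, filter, scaling, thresholds, trend, groups in the fit, a replicate block and leaving out each library. Those added after seeing the data summed FPKM of a row and its pseudogene rows, left out Rpl17 and Rpl24, or dropped the fold threshold. The share of all genes called was computed under each setting. Start regions came from RefSeq, build GRCm38.p6, and a gene with several starts was counted once if any start matched.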

Additional observations from a re-analysis of the deposited data

Results flagged for a closer look

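Pseudogene rows lay outside the comparisons of the family, and 3 of them reached a level in a library of the Pkd1-/- mice that was at least 4 times the highest WT library, or 4 FPKM where WT was under 1, and at least 5 FPKM. Rpl34-ps1 had 409 FPKM in ADPKD library 2 against at most 14.1 in WT, and 13.7 in ADPKD library 1. It also stood at 161 and 184 FPKM in the MMPP-treated libraries. Rpl3-ps1 had 135 FPKM in ADPKD library 2 against at most 24.5 in WT, and 59.1 and 40.8 in the MMPP-treated libraries. Rps2-ps10 had 18.4 FPKM in MMPP-treated library 2 and 17.7 in library 1, against at most 0.712 in WT. In ADPKD library 2, Rpl34 and Rpl3, the genes that the first 2 are named after, were lower than in ADPKD library 1, unlike 82 of the 88 tested rows.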

How the results depend on the processing

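Apart from Rps4l (-0.66) after centring on the family median, no setting called a row lower in ADPKD than in WT. None turned the family's median there below 0 where it was not centred. The count of higher rows in that comparison was 25 and became 11 with a common sum, 13 with a common sum without the family, with median of ratios or with quantiles, 0 at a fold of at least 2, and 56 with no fold threshold, and ranged from 3 to 56 when 1 library was left out. At a fold of at least 2, 6.84% of all genes were higher in ADPKD against WT. In MMPP-treated ADPKD against ADPKD, higher rows numbered 16, and 10 with quantiles (11.4%, against 36.1% of all genes). They numbered 26 after centring by exon share (31.3%, against 33.8%) and 9 at a fold of at least 2 (10.2%, against 18.8%). The median log2 fold change there was -0.45, and it was -0.78 with a common sum, -0.74 without the family in the sum, -0.17 with median of ratios, -0.77 with quantiles, -0.0638 after centring, and -0.54 to -0.22 when 1 library was left out. The median over all genes there was -0.36, and with the same 5 settings -0.73, -0.57, -0.15, 0.10 and 0.15. Against WT the family's median was 0.07, and with these settings -0.32, -0.31, 0.31, -0.26 and 0.33. Over all genes the median against WT was -0.36, and with these settings -0.80, -0.62, -0.18, 0.07 and 0.18. The family's share of all FPKM without the 100 highest other genes was 5.78% and 6.12% in WT, 6.93% and 8.79% in ADPKD, and 7.25% and 7.03% after MMPP. Single values were compared between settings for named rows alone. In ADPKD against WT, Rps4l changed sign and ranged from -0.21 to 0.0648 when 1 library was left out (0.0432 without WT library 2, 0.0648 without ADPKD library 2). Relative to the family median, the values that changed sign were Rpl11 (-0.0938), Rps6 (-0.10), Rps3a1 (-0.0594), Rpl36 (-0.16), Rps14 (-0.25) and Rplp1 (-0.0418). After MMPP against ADPKD they were Rpl36 (-0.28), Rps3a1 (-0.11) and Rpl7l1 (-0.0638) after centring by exon share. Rpl35a also changed sign, to -0.0162, with the FPKM of its pseudogene rows added. Apart from the settings' own construction, the cause was not tested. Of the other values of single rows under an alternative, 850 kept their side of the threshold, 86 lost and 13 gained a call. With the replicate block, 25 rows were higher in ADPKD against WT (background 14.5%). In MMPP-treated ADPKD against ADPKD, 16 were higher (background 28%) and 40 lower (background 43.3%). In MMPP-treated ADPKD against WT, 29 were higher (background 30.3%) and 32 lower (background 44%). The replicate numbers share only a number, since the deviations of same-numbered libraries correlated at 0.129, -0.00796 and 0.0137. At 2 libraries per group and 10910900 to 11807300 reads after MMPP, a row listed at 0 is under the limit of 3 reads, which cannot show that it was not expressed.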
